A study of Mus musculus with 6 samples.

Results

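Glutathione and NRF2 antioxidant genes were examined in splenic γδ T cells. They were chosen by symbol from pathway membership: Gclc, Gclm, Gss, Gsr, Gpx4, Nfe2l2, Keap1, Txnrd1, Prdx1 and Prdx6. All 10 had a row among the 19390 genes of the count table, and all 10 were among the 12810 genes with enough counts to be tested. RNA sequencing was done on 6 libraries of γδ T cells, the T lymphocytes with a receptor of γ and δ chains. The cells had been flow-sorted from spleens of mice aged 6 weeks. The 3 WT-labelled libraries were taken as Usf3 f/f, that is with floxed Usf3 alleles and no Cre, and the 3 KO-labelled libraries as Usf3 f/f with CD2-cre. CD2-cre is a transgene in which CD2 regulatory sequence drives Cre recombinase in lymphoid cells, so deletion is not limited to γδ T cells, and the comparison carries the transgene together with the deletion. The labels do not say whether each library is 1 mouse or a pool, so p-values measure the spread between these libraries, which may be technical.

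Glutathione is a tripeptide of glutamate, cysteine and glycine that cells use to reduce peroxides. Its rate-limiting step is carried out by glutamate-cysteine ligase, made of the catalytic subunit GCLC and the modifier subunit GCLM, and the peptide is finished by glutathione synthetase (GSS). Oxidised glutathione is recycled by glutathione reductase (GSR), and a parallel thiol system runs through thioredoxin reductase and the peroxiredoxins. Many of these genes are induced by the transcription factor NRF2, encoded by Nfe2l2, which binds antioxidant response elements and which KEAP1 marks for destruction until oxidants or electrophiles modify KEAP1. Activated T cells need glutathione for growth, and GPX4 protects T cells from lipid peroxidation.

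The core letters of an antioxidant response element are TGACNNNGC, and stretches that hold these letters are shown because NRF2 is known to bind such elements. Promoter windows of 300 bases, 250 before and 50 after an annotated start, were found in RefSeq (GRCm38.p6) for 7 of the 10 members. Gclc, Gsr and Prdx6 were not matched. These 7 had 12 windows, of which 4 held at least 1 match on either strand, 1 each in Gclm, Nfe2l2, Prdx1 and Txnrd1. Of all 32851 windows, 12.4% did. Stretches around 3 of these matches follow, read 5′ to 3′ on the gene's strand, with the 9 bases of the match in capitals (all 3 match on the opposite strand). The match began 134 bases before the start of Gclm, 133 before that of Prdx1 and 92 before 1 of the 3 annotated starts of Txnrd1. In Nfe2l2 it began 240 bases before the start.
Gclm, chr3:122245377-122245477, plus strand: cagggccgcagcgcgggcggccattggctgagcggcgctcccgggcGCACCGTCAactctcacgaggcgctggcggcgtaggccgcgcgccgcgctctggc
Prdx1, chr4:116685420-116685520, plus strand: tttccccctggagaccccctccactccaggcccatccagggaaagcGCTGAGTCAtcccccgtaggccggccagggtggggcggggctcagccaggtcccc
Txnrd1, chr10:82859068-82859168, plus strand: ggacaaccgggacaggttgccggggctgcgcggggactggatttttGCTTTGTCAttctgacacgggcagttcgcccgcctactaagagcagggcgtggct
The E-box CACGTG, the palindrome bound by the related factors USF1 and USF2, was in 0 of the members' 12 windows and in 7.15% of all windows. A match in letters is a description of these stretches and does not show that a factor binds there.

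Totals were 34644862 to 35806402 counts per library. Usf3, the targeted gene, had 2499, 2527 and 2593 counts in the WT-labelled libraries and 2532, 2360 and 2348 in the KO-labelled ones (per-library values are given in order of replicate number here and below), a difference that did not pass the test (edgeR adjusted p = 0.261). The floxed exons are not named in the sources used here, so a count over the whole gene does not check the genotype, and groups are named by their label throughout. The T cell genes Cd3e, Cd3d and Cd3g had between 9161 and 13651 counts in every library, and Cd4 had 10 to 26. All 3 were lower in KO-labelled libraries, with log2 fold changes of -0.08 for Cd3e, -0.12 for Cd3d and -0.17 for Cd3g (edgeR adjusted p = 0.0364, 0.00287 and 5.91e-05). Genes of the γδ receptor chains, looked up by symbol (Trdc among them), had no row in the count table. They could therefore not be used to check γδ identity. Cd8a was at 2294 to 3117 counts. Defining genes of B cells (Cd79a, 3 to 10 counts), monocytes (Csf1r, 0 to 4) and erythroid cells (Hba-a1, 0 to 10) were near 0, while the B cell gene Cd79b had 158 to 226. Of the listed monocyte, dendritic and neutrophil markers, Cst3 had 1652 to 1989 counts and Cd68 208 to 326.

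In KO-labelled cells Gclc, Prdx6 and Txnrd1 rose and Nfe2l2 fell, and the other 6 members did not pass the test. Gclc rose by 24.1% and Prdx6 by 16.7%, Txnrd1 rose by 6.49%, and Nfe2l2 fell by 17.0%. Among the called members, the gene of the factor and 3 genes that NRF2 can induce thus moved in opposite directions. Gclm, Gsr and Prdx1, of the same pathway, did not pass, at log2 fold changes of 0.13, 0.001 and -0.015. Calls are by edgeR's quasi-likelihood test with Benjamini-Hochberg adjustment across every tested gene and a threshold of 0.05. By that rule 17.3% of all tested genes were called, 7.23% higher and 10.1% lower in KO-labelled libraries. With 10 members chosen with earlier results of these data known, 4 called is a count and was not tested against that share. Every change was small: the largest, in Gclc, was 1.24-fold, and the members' median absolute log2 fold change was 0.099, beside 0.097 over all tested genes. With sign, their median was 0.046, beside 0.001.

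**Figure D1:**
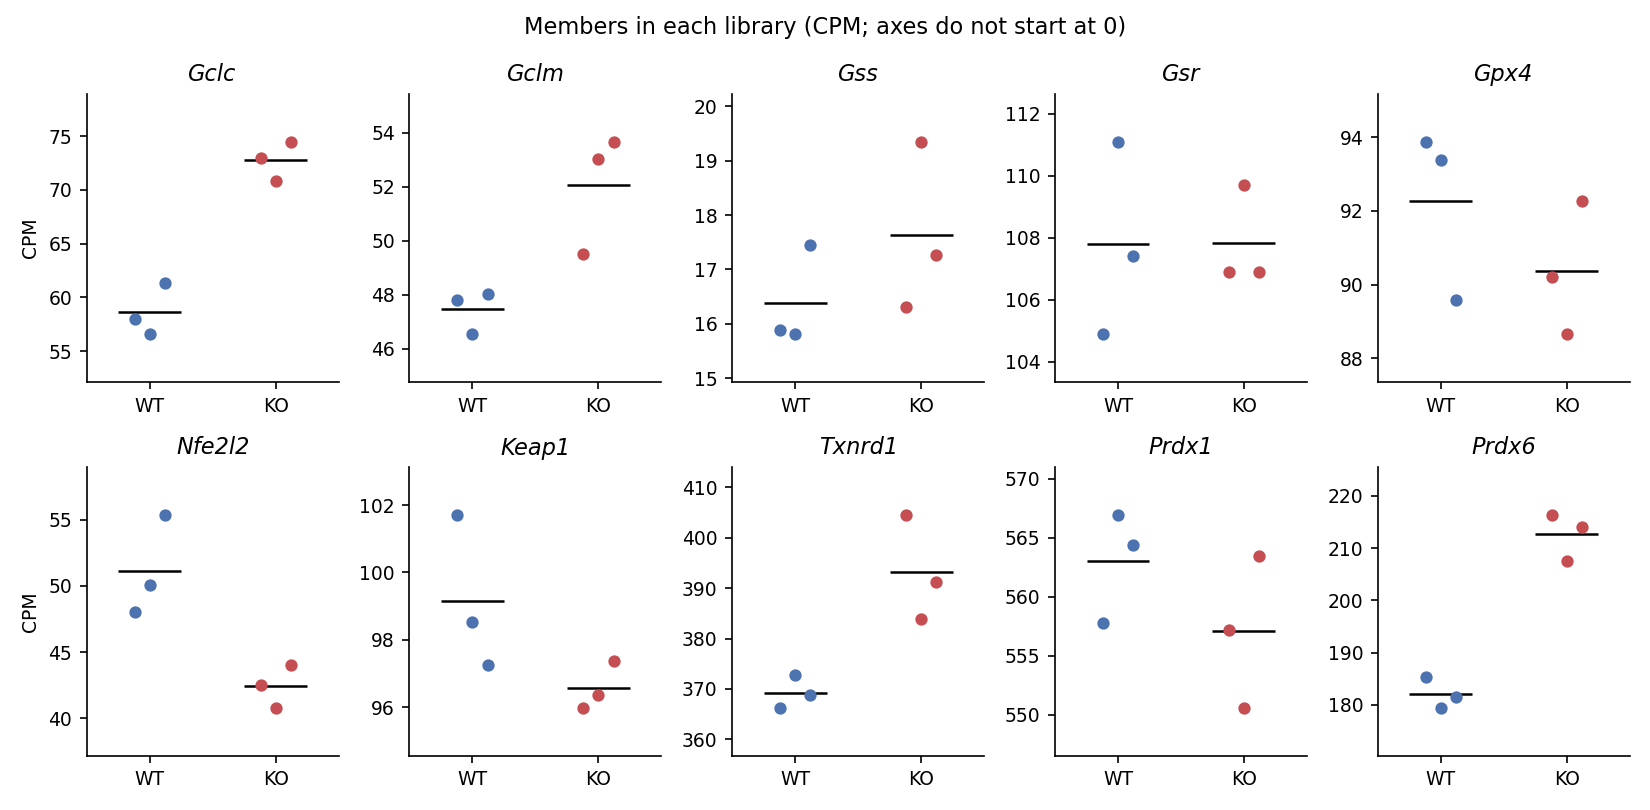
Each panel plots 1 of the 10 genes in CPM (counts scaled to a common library size, y axis, not starting at 0), with 1 point per library in order of replicate number and a line at the mean of the 3 WT-labelled (blue) and 3 KO-labelled (red) libraries. Gclc, Gclm, Txnrd1 and Prdx6 lie wholly higher and Nfe2l2 wholly lower in KO-labelled libraries, and the other 5 overlap.

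Levels per transcript length were compared on the authors' FPKM scale, where FPKM is the count per kilobase of gene length, scaled to the column total. Prdx1, the gene of an abundant cytosolic peroxiredoxin that reduces hydrogen peroxide, was the highest of the set at 396 ± 2.61 FPKM in WT-labelled libraries (SD, n = 3), above 98.8% of tested genes. Txnrd1, the selenoenzyme that regenerates cytosolic thioredoxin, came next at 91.5 ± 0.73 FPKM, a level 4.33-fold lower. Gpx4 followed at 78.5 ± 2.21 and Prdx6 at 65.9 ± 1.21 FPKM, and Gsr stood at 40.2 ± 1.14. Below them Gclm (22.8 ± 0.383 FPKM) and Keap1 (22.1 ± 0.58 FPKM) overlapped and did not differ beyond their spread. Gclc had 16.7 ± 0.656, Nfe2l2 13.4 ± 0.951 and Gss 8.21 ± 0.441 FPKM. All neighbours in this order other than Gclm and Keap1 had separate ranges over the 3 WT-labelled libraries. In KO-labelled libraries Prdx6 reached 77.4 ± 1.86 FPKM, and its range met that of Gpx4 (77.4 ± 1.68).

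**Figure D2:**
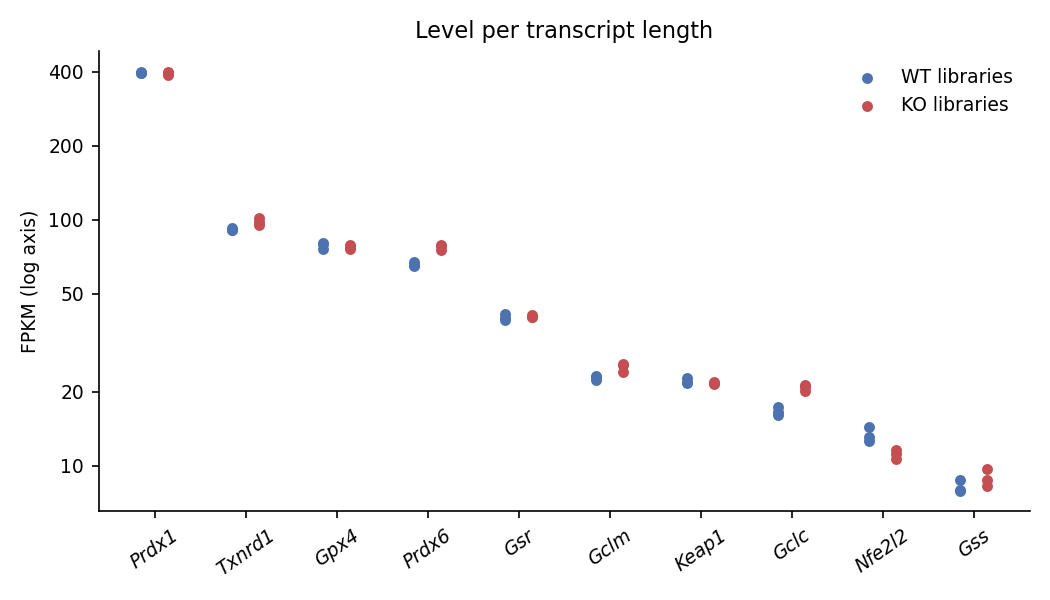
The level of each of the 10 genes is plotted as FPKM on a log axis, with 3 WT-labelled libraries in blue and 3 KO-labelled libraries in red, and genes ordered by their WT mean. Prdx1 stands apart at 396 FPKM and Gss is lowest at 8.21, while Prdx6 meets Gpx4 only in the KO-labelled libraries.

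Among the genes of glutathione synthesis, the catalytic subunit gene rose and the modifier subunit gene missed the threshold. Gclc stood at 58.0, 56.6 and 61.3 CPM in WT-labelled libraries and at 73.0, 70.8 and 74.5 CPM in KO-labelled ones. The lowest KO-labelled library was 1.16 times the highest WT-labelled one, so the groups did not overlap. Its log2 fold change was 0.31 ± 0.043 (SE; edgeR adjusted p = 1.17e-05), and a 95% interval put the rise between 16.6% and 32.1%.

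Gclm, whose product lowers the enzyme's inhibition by glutathione, had 47.8, 46.6 and 48.1 CPM in WT-labelled and 49.5, 53.0 and 53.7 CPM in KO-labelled libraries. The groups did not overlap, but KO replicate 1 lay 1.03 times above the highest WT-labelled library. The log2 fold change of 0.13 ± 0.047 (SE) did not pass (edgeR adjusted p = 0.0531). It lay so near the threshold that 7 of 16 alternative settings called it, with adjusted p from 0.0316 to 0.159. Gss, the enzyme gene of the second step, had 15.9, 15.8 and 17.4 CPM in WT-labelled and 16.3, 19.4 and 17.3 CPM in KO-labelled libraries. These ranges overlapped and the difference did not pass (edgeR adjusted p = 0.418). The interval, from -4.02% to 20.9%, is the widest of the set, and Gss had the fewest counts, a mean of 576 per WT-labelled library. Gss overlaps Acss2 and the antisense genes Gssos1 and Gssos2 in the GENCODE annotation of GRCm38, and without a stated strand setting their reads cannot be told apart. The same limit holds for Gclm, Keap1 and Txnrd1, which overlap Gm17494, Gm16754 and Gm38560, respectively, on the opposite strand. On their own strand Gclm overlaps the pseudogene Gm6061 and Txnrd1 overlaps Eid3.

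The balance of the ligase subunits can be read within a library, where scaling cancels. The ratio of Gclc to Gclm counts was 1.21, 1.22 and 1.28 in WT-labelled and 1.47, 1.34 and 1.39 in KO-labelled libraries. Gclc RNA was thus higher relative to Gclm RNA in each KO-labelled library than in any WT-labelled one. Counts also depend on gene length. On the FPKM scale the ratio was 0.717, 0.718 and 0.754 in WT-labelled and 0.87, 0.789 and 0.82 in KO-labelled libraries. On the log2 scale the count ratio went from 0.30 ± 0.041 to 0.48 ± 0.071 (SD, n = 3 each), a difference of 0.18. A two-sided exact permutation test gave p = 0.1, the smallest that 3 libraries against 3 allow.

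The genes of glutathione recycling and use, Gsr and Gpx4, did not pass the test. Gsr had 104.9, 111.1 and 107.4 CPM in WT-labelled and 106.9, 109.7 and 106.9 in KO-labelled libraries, and every KO-labelled library lay inside the WT range. Its log2 fold change was 0.001 ± 0.036 (SE; edgeR adjusted p = 0.993), with an interval from -4.93% to 5.30%. Gpx4, the peroxidase gene that guards membrane lipids and is needed to avoid ferroptosis, had 93.9, 93.4 and 89.6 CPM in WT-labelled and 90.2, 88.7 and 92.3 in KO-labelled libraries. The ranges overlapped (edgeR adjusted p = 0.658), and the interval ran from -7.20% to 3.35%. In GENCODE, 2 other genes, among them the pseudogene Gpx4-ps2, carry at least 150 bases of at least 95% identity to Gpx4, and how reads shared with such copies were counted is not given.

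In the NRF2 switch itself, the gene of the factor fell and that of its inhibitor did not pass. Nfe2l2 had 48.0, 50.1 and 55.4 CPM in WT-labelled and 42.5, 40.8 and 44.0 in KO-labelled libraries. No KO-labelled library reached the lowest WT-labelled one, and WT replicate 3 was the highest of all. The log2 fold change was -0.27 ± 0.054 (SE; edgeR adjusted p = 0.000884), a change with an interval from -23.2% to -10.3%, and without WT replicate 3 it was -0.21 (adjusted p = 0.0167). Nfe2l2 was also the most variable member in the WT-labelled libraries, with a coefficient of variation of 7.41%, where counting error alone gives 2.36%.

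Keap1 had 101.7, 98.5 and 97.2 CPM in WT-labelled and 96.0, 96.4 and 97.4 in KO-labelled libraries. The 2 ranges touched, and the change of -0.038 ± 0.036 (log2, SE) did not pass (edgeR adjusted p = 0.535). There were 0.472, 0.509 and 0.569 Nfe2l2 counts per Keap1 count in WT-labelled and 0.443, 0.423 and 0.452 in KO-labelled libraries. This ratio was lower in every KO-labelled library than in any WT-labelled one, by 0.23 on the log2 scale, again with p = 0.1 in the two-sided exact permutation test.

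**Figure D3:**
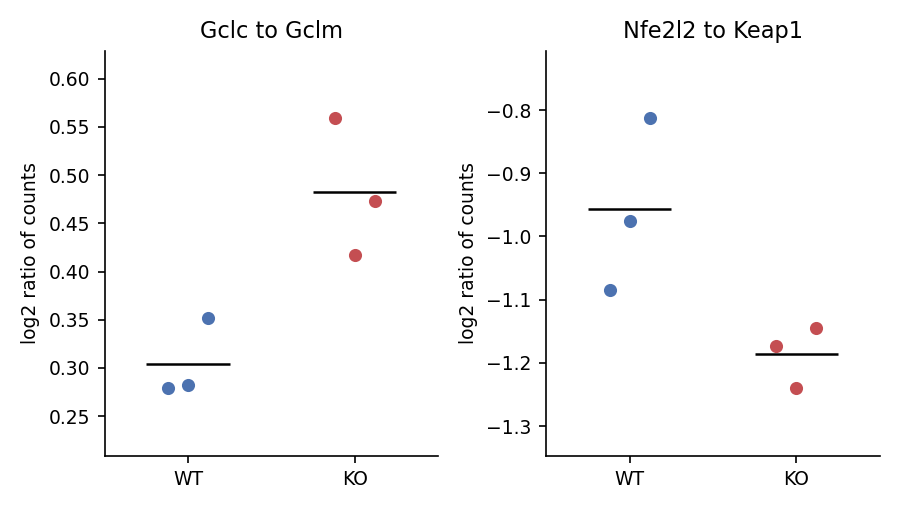
The log2 ratio of counts within each library (y axis, not starting at 0) is plotted for Gclc to Gclm on the left and Nfe2l2 to Keap1 on the right, with 1 point per library and a line at the mean of each label. KO-labelled libraries lie wholly higher in the left panel, by 0.18, and wholly lower in the right panel, by 0.23 on the log2 scale.

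The thioredoxin and peroxiredoxin members split into 2 that rose and 1 that did not pass. Prdx6, a peroxiredoxin with a single active cysteine that is restored by glutathione and that also acts on phospholipids, had 185.3, 179.5 and 181.6 CPM in WT-labelled and 216.3, 207.5 and 214.0 in KO-labelled libraries. Its lowest KO-labelled library was 1.12 times the highest WT-labelled one. The log2 fold change was 0.22 ± 0.029 (SE; edgeR adjusted p = 4.10e-06), the smallest p of the set, with an interval from 11.95% to 21.7%.

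Txnrd1 had 366.3, 372.7 and 368.8 CPM in WT-labelled and 404.5, 383.9 and 391.3 in KO-labelled libraries, so the groups did not overlap and KO replicate 1 stood highest. The log2 fold change of 0.091 ± 0.025 (SE) passed (edgeR adjusted p = 0.0137), with an interval from 2.70% to 10.4%. The call was lost when KO replicate 1 (adjusted p = 0.109) or WT replicate 1 (adjusted p = 0.0734) was left out. Prdx1 had 557.8, 566.9 and 564.4 CPM in WT-labelled and 557.2, 550.6 and 563.4 in KO-labelled libraries. It was the most deeply counted member, with a mean of 19803 counts per WT-labelled library, and its interval from -4.17% to 2.15% was the narrowest (edgeR adjusted p = 0.71). In GENCODE 2 other genes carry near-identical stretches of Prdx1 by the rule given for Gpx4.

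**Figure D4:**
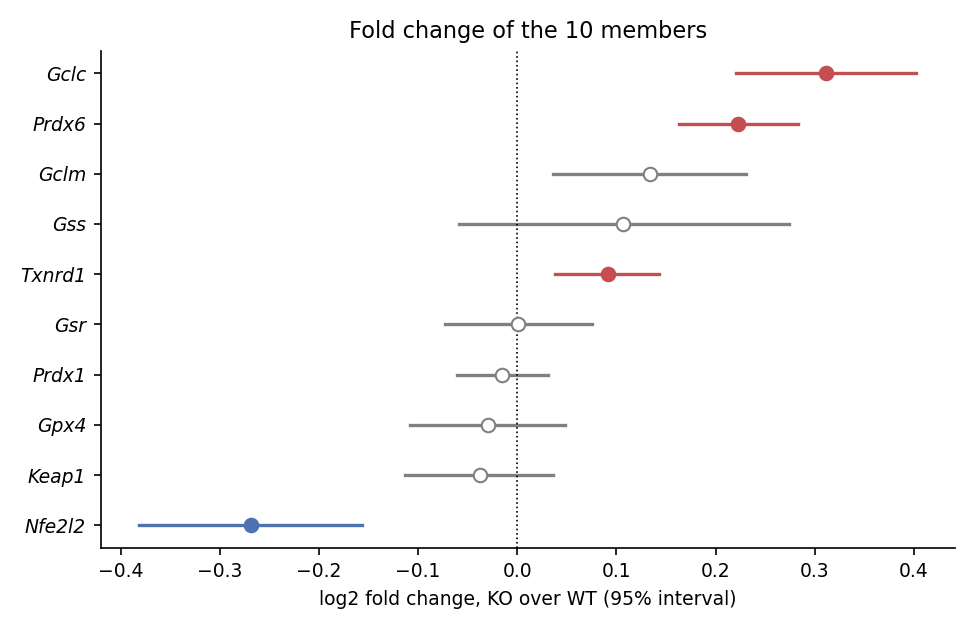
The log2 fold change of KO-labelled over WT-labelled libraries (x axis) is plotted for the 10 genes with its 95% interval, filled where the edgeR test passed (red higher, blue lower) and open where it did not. Gclc (0.31), Prdx6 (0.22) and Txnrd1 (0.091) are the filled points above 0 and Nfe2l2 (-0.27) the filled point below it.

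Among WT-labelled libraries, spread was close to counting error for Prdx1 and Txnrd1 and farthest above it for Nfe2l2. In WT-labelled libraries the coefficient of variation of CPM was 0.837% for Prdx1 and 0.87% for Txnrd1, where counting error alone gives 0.711% and 0.877%. Gclc varied by 4.13% in WT-labelled and 2.54% in KO-labelled libraries (counting error 2.20%), and Gss by 5.62% and 8.85% (counting error 4.17%). Gclm and Txnrd1 varied more among KO-labelled libraries (4.28% and 2.65%) than among WT-labelled ones (1.70% and 0.87%), a difference that was not tested. Counting error at WT counts is 2.45% and 0.877%, so Txnrd1 stood well above it in KO-labelled libraries. KO replicate 1 was the lowest of its label in Gclm and the highest in Txnrd1.

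The calls of Gclc, Prdx6 and Nfe2l2 were made under each of the 16 alternative settings, and that of Txnrd1 under 14. Over these settings the log2 fold change ran from 0.29 to 0.35 for Gclc (adjusted p at most 0.000789, the highest being from limma on log2 FPKM), from 0.21 to 0.24 for Prdx6 and from -0.31 to -0.21 for Nfe2l2. Gss, Gsr, Gpx4, Keap1 and Prdx1 were called under 0 of the 16, DESeq2 and limma-voom included, and Gss ranged from 0.036 to 0.16.

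Over the set, 5 members had ranges that did not overlap between labels, 4 above and 1 below. Of all tested genes, 32.1% had such ranges, 15.5% above and 16.7% below. The summed level of the 10 members was 1580 to 1590 CPM in WT-labelled and 1620 to 1660 CPM in KO-labelled libraries, here with counts over the plain library total. In bulk RNA, fewer cells of a type and less RNA per cell cannot be told apart, and this holds for each gene described. Marker levels also differed between the labels. T cell markers summed to 4680 to 4720 CPM over 15 genes in WT-labelled and 4520 to 4610 in KO-labelled libraries, with 1 of 15 tested genes higher and 6 lower. Of all tested genes, 7.23% were higher and 10.1% lower. The largest term was Il2rb, at a mean of 2220 CPM in WT-labelled libraries. It did not pass, at -0.033 (log2; edgeR adjusted p = 0.222). Monocyte, dendritic and neutrophil markers summed to 85.3 to 86.4 CPM over 16 genes in WT-labelled and 73.9 to 75.6 in KO-labelled libraries. Most of that was Cst3, and 4 of 8 tested genes were lower and 0 higher. The dendritic marker Xcr1 pointed up, at 1.43 (log2), but did not pass (edgeR adjusted p = 0.0834). This list also holds Hmox1, which is an NRF2 target as well and was at 0.014. Erythroid and platelet markers summed to 18.4 to 21.9 and 26.1 to 29.1 CPM over 9 genes, nearly all from Car2, with 1 of 2 tested genes higher. B cell markers summed to 9.71 to 10.6 and 7.04 to 9.47 CPM over 11 genes, with 1 of 3 tested genes, Blk, lower. NK cell markers, of which Gzma and Eomes, also expressed by effector T cells, make up most, summed to 2710 to 2780 and 3110 to 3280 CPM over 7 genes, with 2 of 5 tested genes higher and 1 lower. The αβ T cell markers summed to 95.4 to 97.5 and 113 to 116 CPM over 4 genes, with Cd8a higher and Foxp3 lower. Cd8b1 and Cd4 did not pass, at -0.021 and -0.17 (log2; edgeR adjusted p = 0.884 and 0.851), so the sum rose through Cd8a alone. The αβ receptor genes Trac, Trbc1 and Trbc2 had no row in the count table. The part of the cell type markers in the changes of the antioxidant genes was not tested.

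Related genes were read from 12 lists of the same pathways, which hold 193 tested genes besides the members. Of these, 16 were higher and 21 lower, 19.2% in all beside 17.3% of all tested genes, and the median log2 fold change was 0.001 in both. Medians of single lists ran from -0.079 for other glutathione peroxidases to 0.063 for superoxide and peroxide enzymes with methionine sulfoxide reductases. This split turned with scaling, to 23 higher and 16 lower under upper-quartile factors and 25 and 16 under total counts alone.

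**Figure D5:**
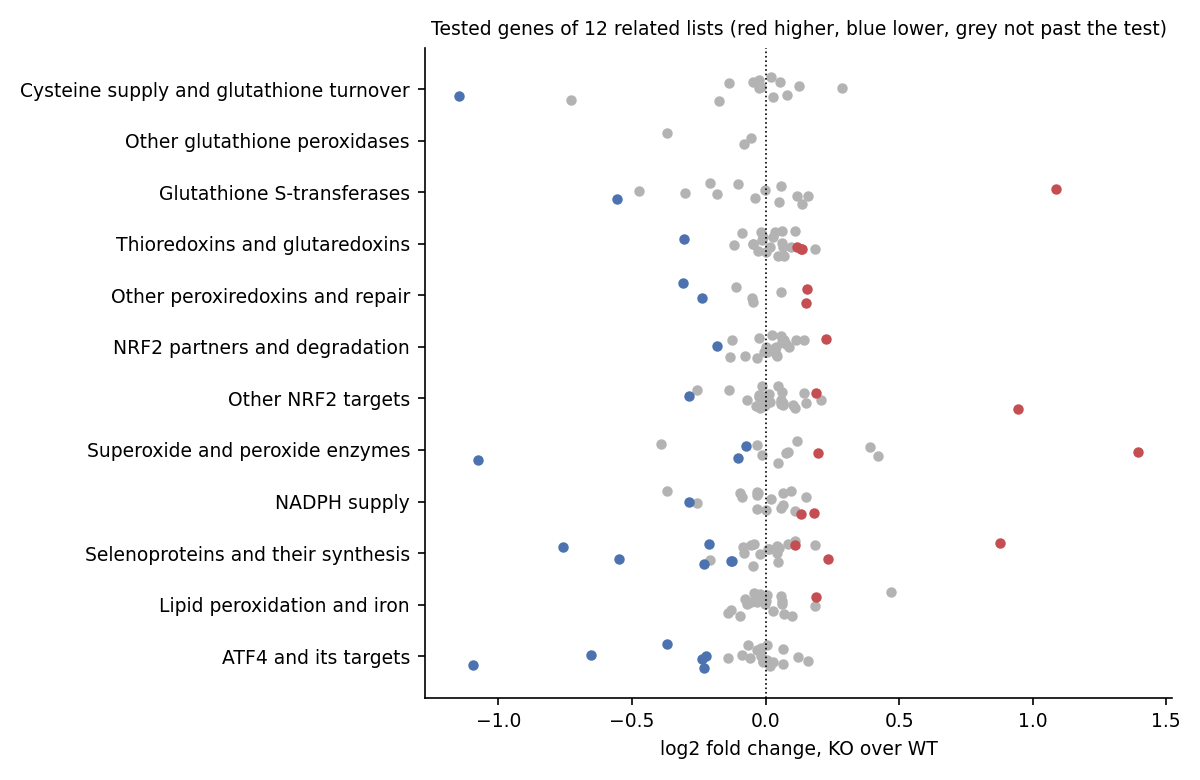
Each point is a tested gene of 1 of 12 related lists, plotted by its log2 fold change of KO-labelled over WT-labelled libraries (x axis), red where higher, blue where lower and grey where the edgeR test was not passed. Most points lie near 0 in every list, and calls fall on both sides except in the lists of glutathione turnover and ATF4 targets, where the called genes are lower, in that of lipid peroxidation and iron, where the 1 called gene is higher, and among other glutathione peroxidases, where none was called.

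Other classical NRF2 targets were higher in 2 and lower in 1 of 30 tested genes by edgeR, and higher in 4 and lower in 0 by both DESeq2 and limma-voom. At an unadjusted p under 0.05 by edgeR, 6 were higher and 2 lower. Tkt and Fth1, at 0.066 and 0.061 (log2), narrowly missed the threshold (edgeR adjusted p = 0.0504 and 0.0515). Idh1, the 1 lower gene, at -0.285, narrowly met it (edgeR adjusted p = 0.0487). Ftl1, the ferritin light chain that stores iron, had 1070, 1035 and 1075 CPM in WT-labelled and 1202, 1183 and 1233 in KO-labelled libraries, a log2 fold change of 0.19 ± 0.022 (SE; edgeR adjusted p = 1.07e-06). All 3 KO-labelled libraries lay above the WT-labelled ones, and 7 other genes carry near-identical stretches of Ftl1. Ephx1, an epoxide hydrolase gene, rose by 0.94 from a low level of 1.84 ± 0.446 CPM. Of targets chosen after their values were seen, Nqo1, Hmox1 and Srxn1, widely used as readouts of NRF2 activity, did not pass, at 0.14, 0.014 and 0.059 (edgeR adjusted p = 0.396, 0.952 and 0.578). NRF2 partners, relatives and degradation factors were higher in 1 and lower in 1 of 22 tested genes, and Park7 (DJ-1), which has been described as stabilising NRF2, fell by 0.18 ± 0.035 (log2, SE).

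Around Gclc and Gclm, 14 genes of cysteine supply and glutathione turnover were tested, of which 0 were higher and 1 lower by edgeR, DESeq2 and limma-voom, with 2 higher and 4 lower at an unadjusted p under 0.05 by edgeR. Ggt1, which breaks down glutathione outside the cell, fell by 1.15 ± 0.217 (log2, SE) from 3.97 ± 0.894 CPM. Slc7a11, the cystine transporter gene and chosen after its values were seen, had only 8, 5 and 14 counts in WT-labelled and 1, 1 and 4 in KO-labelled libraries and was not tested. Beside Gpx4, the other glutathione peroxidases had 0 of 3 tested genes called by the same tools, and 1, Gpx1, lower at an unadjusted p of 0.0226 by edgeR. Glutathione S-transferases were higher in 1 and lower in 1 of 14, and the microsomal Mgst2 fell by 0.56 ± 0.089.

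Around Txnrd1, 24 thioredoxin and glutaredoxin genes were tested, of which 3 were higher and 1 lower. Glrx, the cytosolic glutaredoxin that uses glutathione to reduce protein disulfides, had 187.6, 188.9 and 187.7 CPM in WT-labelled and 147.2, 154.9 and 154.7 in KO-labelled libraries, a fall of 0.30 ± 0.030 (log2, SE; edgeR adjusted p = 8.20e-08). The groups did not overlap, against a spread of 0.701 CPM (SD) in WT-labelled libraries. Txndc5, a protein disulfide isomerase gene, rose by 0.13, and Txn1, the cytosolic substrate of Txnrd1 and the most abundant gene of the list, was at -0.015 (edgeR adjusted p = 0.761). Besides Prdx1 and Prdx6, 8 peroxiredoxin and repair genes were tested, with 2 higher and 2 lower. The higher ones were the peroxiredoxin genes Prdx2 and Prdx3, the latter at 0.153 (log2; edgeR adjusted p = 0.0101). The lower ones were the sestrin genes Sesn3 and Sesn2, at -0.308 and -0.238 (edgeR adjusted p = 1.71e-05 and 0.0127). Prdx2, the cytosolic relative of Prdx1, had 94.7, 95.3 and 95.8 CPM in WT-labelled and 105.5, 105.6 and 107.1 in KO-labelled libraries, a rise of 0.15 ± 0.035 (log2, SE; edgeR adjusted p = 0.00239), so of the 2 relatives the more abundant did not pass and the less abundant did.

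GPX4 and TXNRD1 both carry selenocysteine at the active site, and selenoproteins with the machinery that inserts it were higher in 3 and lower in 6 of 25 other tested genes. Selenow, a small selenoprotein gene, had 123.4, 124.1 and 124.1 CPM in WT-labelled and 69.5, 71.9 and 78.2 in KO-labelled libraries, a fall of 0.76 ± 0.041 (log2, SE; edgeR adjusted p = 3.04e-12). Selenon, which encodes an endoplasmic reticulum selenoprotein, went the other way, from 23.1 ± 1.86 to 42.4 ± 0.182 CPM (SD, n = 3 each), a rise of 0.88. Sephs2, which makes the selenium donor for selenocysteine, rose by 0.23 ± 0.036.

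Of 19 tested genes of NADPH supply, which serves both Gsr and Txnrd1, 2 were higher and 1 lower by edgeR, and 3 and 0 by DESeq2 and limma-voom. The folate enzyme genes Shmt1 and Mthfd1 rose by 0.18 and 0.13. In the list of lipid peroxidation and iron handling Ftl1 was the 1 gene of 21 called by edgeR, with 0 lower (3 higher and 1 lower at an unadjusted p under 0.05, and 2 higher by DESeq2 and limma-voom). ATF4 and its targets in amino acid stress were higher in 0 and lower in 6 of 24 by edgeR (3 and 7 unadjusted), with 4 lower by DESeq2 and 5 by limma-voom. Ddit4, an inhibitor of mTORC1, fell by 0.65 and Atf3, a stress-induced factor gene, by 1.10, while Atf4 itself was at 0.007 (edgeR adjusted p = 0.904).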

How the data were processed

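The authors deposited gene counts, whole numbers of reads per gene symbol, and FPKM values for the same 6 libraries, 1 column each. The submitters' processing notes name fastp, HISAT2, HTSeq and GRCm39. Not given in the sources used here: tool versions, settings, annotation and strand. FPKM values, as deposited, equal count over column total and over 1 length per gene, and served for levels between genes.

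Counts were fitted in edgeR 4.0.16 (R 4.3.3) with TMM scaling, filterByExpr, and glmQLFit with glmQLFTest on the label over all 6 libraries. Of 19390 genes 12810 were tested. CPM use TMM-scaled totals. A gene was called at a Benjamini-Hochberg adjusted p under 0.05. SE is the absolute log2 fold change over the root of F, and intervals are 95%. Ratios were tested by two-sided exact permutation. Libraries of 1 label differed beyond sampling noise (chi-square per degree of freedom 3.22 to 6.94), so none was taken as the same library sequenced again. Separate preparations from 1 pool could also differ so, and these values do not tell them from separate animals. The common coefficient of variation beyond counting error, as fitted by edgeR, was 4.16%. Alternatives were other scalings and filters, DESeq2 1.42.0, limma-voom (limma 3.58.1), limma on log2(FPKM + 0.1) and log2(FPKM + 1) where FPKM averaged at least 1, a replicate block, and each library left out. On simulated counts for KO against WT (12668 genes), the fit recovered 50.7% at a true fold of 1.2, 71.6% at 1.5 and 84.8% at 2, and 4.83% of its calls were false. The simulation used the fitted dispersion trend and changed 67, 67 and 66 genes at these folds, drawn at random from all levels. Far more genes were called in the data, so these rates need not hold for the members.

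The members and lists were chosen with earlier results of these data known. The rule named Usf3, all members, and per list up to 4 called genes by smallest p (or the 2 smallest where fewer than 2 passed) and the most abundant gene. The text keeps mainly those whose call held in every alternative, and gives the others by count.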

Additional observations from a re-analysis of the deposited data

How the results depend on the processing

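By edgeR, 926 genes were higher and 1293 lower in KO-labelled libraries, and over the alternatives these counts stayed within 1.5 times, from 666 to 1093 and from 932 to 1357. Members called ranged from 2 to 4 higher with 1 lower throughout. Among the related genes of the 12 lists, 16 were higher and 21 lower. Total-count scaling called 25 higher, and leaving out 1 library gave 13 to 24 higher and 13 to 18 lower, with 13 lower without WT replicate 2 or WT replicate 3. The scaling settings moved the median log2 fold change of all genes by less than 0.1. Among the genes followed, directions turned for 3 near 0: with 1 library left out, Gsr ran from -0.017 (without WT replicate 1) to 0.025, Atf4 from -0.017 (without KO replicate 3) to 0.026, and Txn1 from -0.036 to 0.006 (without WT replicate 3). The cause was not tested. The log2 ratio of Gclc to Gclm differed by 0.141 to 0.212 and that of Nfe2l2 to Keap1 by -0.292 to -0.157 with 1 library left out, where no p below 0.2 is possible.

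With the replicate number as a block, 792 genes were higher and 1177 lower, and the same 3 members were higher (Gclc, Prdx6, Txnrd1) and 1 lower (Nfe2l2). Both ratios gave p = 0.25 by exact sign changes within the block, the smallest possible with 3 pairs. The labels do not say whether same-numbered libraries share more than a number. Their deviations from the label means correlated at 0.055, -0.022 and -0.039 for replicates 1, 2 and 3, and those of other pairs at -0.055 to 0.079. With 3 libraries per label, such values cannot decide whether libraries were paired. Depth limits Gss most, where counting error alone is 4.17% in WT-labelled libraries.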

Other observations

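The list of superoxide and peroxide enzymes also holds methionine sulfoxide reductases. Of its 14 tested genes, 2 were higher (Ncf4 and the reductase gene Msrb3) and 3 lower in KO-labelled libraries (edgeR adjusted p under 0.05). Subunits of the phagocyte NADPH oxidase, an enzyme that makes superoxide from NADPH, moved in opposite directions. Ncf1 (p47phox), the organiser subunit gene, had 23.5, 23.4 and 24.4 CPM in WT-labelled and 10.9, 12.7 and 10.2 in KO-labelled libraries, a fall of 1.08 ± 0.081 (log2, SE; edgeR adjusted p = 7.89e-10) and larger than that of any of the 10 antioxidant members. Ncf4 (p40phox) had 91.3, 93.6 and 87.3 CPM in WT-labelled and 99.0, 105.3 and 107.3 in KO-labelled libraries and rose by 0.20 ± 0.040 (edgeR adjusted p = 0.00109). Cybb, the catalytic subunit gene and chosen after its values were seen, had at most 10 counts in any library and was not tested. Sod1 and Cat, which remove superoxide and peroxide, did not pass, at 0.084 and -0.013 (edgeR adjusted p = 0.0807 and 0.878). Monocyte, dendritic and neutrophil markers were also lower in sum, at 73.9 to 75.6 CPM in KO-labelled and 85.3 to 86.4 in WT-labelled libraries. Most of the sum was Cst3 (1652 to 1989 counts per library), and Cd68 had 208 to 326 counts. By contrast, Csf1r, Adgre1 and S100a8 were at 0 to 4 counts in every library. The part of the markers of this list in the fall of Ncf1 was not tested.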
